A study of Homo sapiens with 6 samples.

Results

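Fibronectin, thrombospondin 1 and 7 other genes tied to the mesenchymal state were followed in HCT116 cells with and without SETD8 overexpression. The 9 genes, of 58735 in the count table, were taken by name from GENCODE release 29: the matrix genes FN1, THBS1 and TNC, the crosslinker TGM2, the collagen receptor MRC2, the cytoskeletal and calcium-binding genes VIM and S100A4, and the transcription factors ZEB1 and SNAI2. They were selected on their read counts in vector and SETD8 libraries, with the results of that contrast in view, so their differences in it are a description. Their calls in the fit over all genes are counted below, and nothing is read from them. Means below are followed by the SD over the 3 libraries of a group (n = 3 each).

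HCT116 is an established human colorectal carcinoma line of epithelial character. The vector group, labelled WT, received a lentiviral empty vector and the SETD8 group a lentiviral SETD8 overexpression construct, and both were selected with puromycin as stable clones. The design text speaks of transfected plasmids instead, and the number of clones behind each library is not given in the labels. SETD8, an enzyme that methylates lysines of histones and other proteins, is now listed under the symbol KMT5A, and the title of the series concerns its methylation of the coactivator YAP. Each group had 3 libraries of poly(A)-selected RNA, with 17056672 to 20471843 counted reads. Whether replicates were separate cultures is not in the labels, so each p-value measures the spread between these libraries, which may be technical.

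Fibronectin is a secreted glycoprotein that cells assemble into fibrils through integrins, and thrombospondin 1 and tenascin-C are matricellular proteins that bind such fibrils and change how cells adhere to them. Transglutaminase 2 crosslinks matrix proteins and binds fibronectin at the cell surface, and MRC2 (Endo180) takes up collagen for breakdown. In the epithelial-mesenchymal transition (EMT), factors such as ZEB1 and SNAI2 repress epithelial adhesion genes, while fibronectin, the filament protein vimentin (VIM) and S100A4 become more abundant. TEAD factors, the DNA-binding partners of YAP, bind sites with the letters GGAATG.

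The promoter windows of FN1, THBS1, VIM and S100A4 are shown because these genes were lower with SETD8 and have an entry in the RefSeq promoter table (GRCh38.p14). Each runs 5′ to 3′ on the gene's strand from 250 bases before the RefSeq start, and bases that GENCODE places in an exon of the gene are left out. The windows lie at chr2:215436173-215436318 (minus strand), chr15:39580829-39581078 (plus), chr10:17227991-17228240 (plus) and chr1:153545886-153546056 (minus), upstream of the RefSeq first exons. Capitals mark 7 motifs searched on both strands: the cyclic AMP response element TGACGTCA, the AP-1 site TGANTCA, the box named for its letters CCAAT, the TATA box searched as TATAA, the ZEB and SNAI E-box CAGGTG, the TEAD site GGAATG and the GC box GGGCGG.
FN1: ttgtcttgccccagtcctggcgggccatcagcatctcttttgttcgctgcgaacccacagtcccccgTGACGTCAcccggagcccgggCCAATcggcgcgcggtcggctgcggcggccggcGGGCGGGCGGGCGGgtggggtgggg
THBS1: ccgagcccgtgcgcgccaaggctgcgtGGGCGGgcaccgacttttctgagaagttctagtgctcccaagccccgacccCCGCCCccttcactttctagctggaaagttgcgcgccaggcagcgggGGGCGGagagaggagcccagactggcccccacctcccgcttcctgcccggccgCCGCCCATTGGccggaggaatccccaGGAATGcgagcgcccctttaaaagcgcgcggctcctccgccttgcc
VIM: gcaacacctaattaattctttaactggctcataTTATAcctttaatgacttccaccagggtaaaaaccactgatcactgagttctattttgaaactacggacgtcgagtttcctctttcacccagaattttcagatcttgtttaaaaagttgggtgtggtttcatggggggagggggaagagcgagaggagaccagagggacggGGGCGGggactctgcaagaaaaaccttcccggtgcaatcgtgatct
S100A4: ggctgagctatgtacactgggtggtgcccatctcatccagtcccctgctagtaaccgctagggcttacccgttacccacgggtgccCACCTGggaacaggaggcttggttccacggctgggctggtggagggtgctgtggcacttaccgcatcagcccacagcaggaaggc
FN1 held the cyclic AMP response element from 183 bases before its start, which 1.65% of 35116 promoters of this length hold, and a CCAAT box from 162. Of its 6 GC boxes, those from 129, 125 and 121 bases before the start overlap one another, and those from 107, 102 and 49, with a TATAA match from 28, run into or lie in the exonic part that is not shown. THBS1 held the TEAD letters from 46 bases before its start, present in 11.9% of all promoters, and a reversed CCAAT box (32.0% of promoters) directly after a reversed GC box (42.6%). VIM held 1 GC box and a reversed TATAA, a motif in 18.9% of promoters. S100A4 held a reversed E-box, printed as CACCTG, from 164 bases before the start. This motif was present in 17.5% of promoters. S100A4 also held a TATAA from 31 bases in the part not shown. No AP-1 letters (6.57% of promoters) were found in the 12 windows of the 6 members in the table. A match of letters is a description of the sequence, not evidence of binding. TGM2, MRC2 and SNAI2 had no entry.

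Libraries of the vector group were more spread than those of the SETD8 group. Along the first principal component of the log2 CPM values (CPM is the TMM-normalised read count scaled to library size), with 46.4% of the variance, SETD8 libraries stood at -23.8 to -16.5 and vector replicates 1, 2 and 3 at -0.939, 25.7 and 39.3. KMT5A ranged from 46.0 to 53.9 CPM with vector and from 65.4 to 75.5 CPM with SETD8 (edgeR adjusted p = 0.0156; log2 fold change 0.49, SE 0.10). The direction of KMT5A matches the labels. Its groups did not overlap, as in 14.4% of all tested genes in that direction. Its call was lost without vector replicate 2 or any 1 of the SETD8 libraries (edgeR adjusted p up to 0.0965). For the epithelial label, 6 of 9 colon epithelial markers were above 1 CPM and together gave 10772 to 13286 CPM, while VIL1, LGALS4 and CDH17 were under 1 CPM in every library. Of 10 fibroblast markers, 5 had no count in any library and 9 were under 1 CPM in every library. Their sum was 4.85 to 7.32 CPM with vector and 3.50 to 4.83 CPM with SETD8, most of it COL1A1. Endothelial markers summed to 11.7 to 13.02 CPM and 11.5 to 12.01 CPM and immune markers to 0.763 to 1.61 and 0.407 to 0.725 CPM, so the immune and fibroblast sums moved with the groups at very low levels. The fibroblast markers PDGFRA and DCN and the immune markers PTPRC and CD3E were at 0 in every library. The other 5 of 7 immune markers had reads in at least 1 library, with CD74 highest at 0.159 to 1.44 CPM. Of 7 endothelial markers KDR alone was at 0 throughout, and ESAM, at 9.96 to 11.5 CPM, made up most of the sum. The part of these markers in the results was not tested.

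The matrix glycoprotein genes FN1 and THBS1 were each about 2-fold lower with SETD8, at 1.89-fold and 2.11-fold. FN1 (ENSG00000115414, chromosome 2, 215360440 to 215436172 of GRCh38, 17315 exon bases) had 24.7, 29.9 and 43.2 CPM in vector replicates 1, 2 and 3 and 18.3, 18.3 and 14.9 CPM in SETD8 replicates 1, 2 and 3. The lowest vector library lay above the highest SETD8 library. The means of 32.6 ± 9.53 and 17.2 ± 1.93 CPM gave a log2 fold change of -0.92 (SE 0.18). THBS1 (ENSG00000137801, chromosome 15, 39581079 to 39599466, 9158 exon bases) had 26.9, 45.1 and 40.6 CPM in the vector libraries and 15.9, 16.3 and 21.2 CPM in those with SETD8. Its groups did not overlap either, and its highest SETD8 library was replicate 3, in which FN1 was lowest. Means were 37.5 ± 9.46 and 17.8 ± 2.93 CPM (log2 fold change -1.08, SE 0.18). In bulk RNA, fewer cells expressing a gene and less RNA per cell cannot be told apart.

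**Figure D1:**
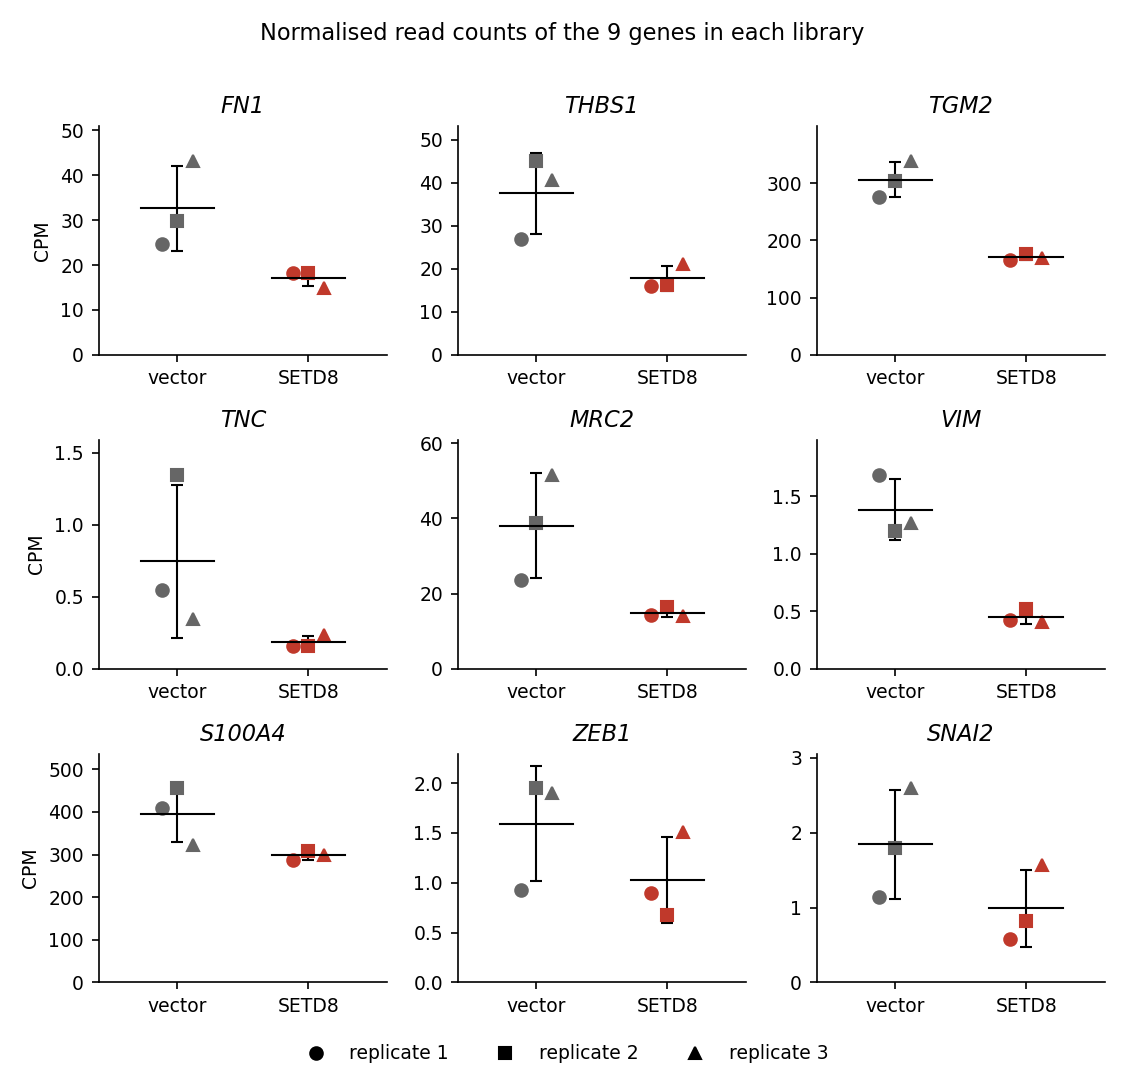
TMM-normalised CPM (y axis, from 0, own scale per gene) of the 9 genes in 3 vector and 3 SETD8 libraries, with 1 point per library, a horizontal line at the mean and bars of 1 SD. FN1, THBS1, TGM2, TNC, MRC2, VIM and S100A4 do not overlap between groups, and ZEB1 and SNAI2 do.

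TNC, the tenascin-C gene, was near the limit of detection and was removed by the low-count filter. It held 10, 27 and 6 reads in vector replicates 1, 2 and 3 and 3, 3 and 4 reads in the SETD8 libraries. In CPM these were 0.545, 1.35 and 0.346 against 0.159, 0.155 and 0.233, and 3 reads stand at 0.15 to 0.174 CPM, which covers counting error only. Vector replicate 2 alone was above 1 CPM, and the SETD8 libraries lay at about that 3-read level. Without the filter its fitted log2 fold change was -2.01, a value that rests on a few reads. TNC lies on chromosome 9 from 115019578 to 115118257, and DEC1 on the opposite strand shares 129 exon bases with it and had 1 to 9 reads.

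The crosslinker TGM2 had the smallest SE of the 8 tested members. It lies on chromosome 20 (38127387 to 38166578, ENSG00000198959) and had 277, 303 and 339 CPM in the vector libraries and 166, 177 and 169 CPM in those with SETD8. All vector libraries were well above all SETD8 libraries. The means of 306 ± 31.3 and 171 ± 5.70 CPM gave a log2 fold change of -0.84 (SE 0.09), 1.79-fold lower with SETD8. RPRD1B on the opposite strand shares 394 exon bases with TGM2, 4.90% of the TGM2 exon bases, and had 988 to 1162 reads against 2910 to 6078 for TGM2. No label or header says how the counting treated strand, so reads of the shared bases cannot be assigned.

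MRC2, the collagen receptor, showed the largest difference among members above 5 CPM. On chromosome 17 (62627401 to 62693597, ENSG00000011028), it had 23.7, 38.8 and 51.7 CPM in the vector libraries and 14.4, 16.3 and 14.02 CPM in those with SETD8. The groups did not overlap, and the vector libraries spread 2.18-fold from lowest to highest. Means were 38.1 ± 14.03 and 14.9 ± 1.24 CPM (log2 fold change -1.35, SE 0.23, 2.55-fold lower with SETD8).

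Vimentin and S100A4, both used as mesenchymal markers, differed widely in level, with VIM near 1 CPM and S100A4 above every other member per kilobase of exon. VIM (chromosome 10, 17228259 to 17237593) had only 31, 24 and 22 reads in vector and 8, 10 and 7 reads in SETD8 libraries, or 1.69, 1.20 and 1.27 against 0.424, 0.518 and 0.407 CPM. Every vector library was above every SETD8 library, at levels near 1 CPM. Its log2 fold change was -1.60 (SE 0.40), 3.04-fold lower, and with so few reads in the SETD8 libraries it passed the low-count filter through its vector counts. VIM-AS1 on the opposite strand shares 641 exon bases with VIM, 12.4% of the VIM exon bases, and had 2 to 6 reads, so part of the VIM count is uncertain. S100A4, a small calcium-binding protein gene on chromosome 1 (153543613 to 153550136), had 409, 455 and 323 CPM in the vector libraries and 287, 308 and 299 CPM in those with SETD8. The gap was small, as vector replicate 3 lay just above SETD8 replicate 2. Means were 396 ± 67.2 and 298 ± 10.6 CPM (log2 fold change -0.41, SE 0.11, 1.33-fold lower).

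The EMT factors ZEB1 and SNAI2 were weakly expressed and their groups overlapped. ZEB1, a zinc finger repressor of epithelial genes (chromosome 10, 31318495 to 31529814), had 17, 39 and 33 reads in vector and 17, 13 and 26 reads in SETD8 libraries. That is 0.927, 1.95 and 1.90 CPM against 0.900, 0.673 and 1.51 CPM, so vector replicate 1 lay among the SETD8 libraries. Its log2 fold change of -0.64 had an SE of 0.42. ZEB1-AS1 on the opposite strand shares 366 exon bases with it and had 12 to 19 reads, so part of so small a count is uncertain. SNAI2, which encodes the repressor Slug, had 1.15, 1.80 and 2.59 CPM in the vector libraries and 0.583, 0.828 and 1.57 CPM in those with SETD8. SETD8 replicate 3 was above vector replicate 1, and the log2 fold change was -0.90 (SE 0.43).

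In the fit of all genes, 6 of the 8 tested members passed the edgeR threshold as lower and 0 as higher, beside 4.75% and 3.08% of 14370 genes tested (7.83% in either direction). FN1, THBS1, TGM2, MRC2, VIM and S100A4 passed, ZEB1 and SNAI2 did not, and TNC was not tested. The same 6 of 8 did not overlap between groups in that direction, against 15.9% of all tested genes. Since the contrast was known when the members were chosen, nothing is read from these counts. Their median log2 fold change was -0.91, beside 0.000472 over all tested genes. The number that passed rested on single libraries. Without vector replicate 2 or SETD8 replicate 1 only TGM2 passed, while 0.491% and 0.0747% of all genes were called. Without SETD8 replicate 2 or 3, THBS1, TGM2 and MRC2 passed, with 1.06% and 0.873% of all genes called. All 6 passed without vector replicate 1 or 3 (23.8% and 7.44% of all genes called). The sign of all 8 fold changes stayed negative when any 1 library was left out, with FN1 between -1.09 and -0.67, THBS1 between -1.27 and -0.92, TGM2 between -0.91 and -0.76 and MRC2 between -1.60 and -1.07. VIM lay between -1.72 and -1.44 and S100A4 between -0.53 and -0.28. The weakly expressed factors varied more: ZEB1 was -1.01 without SETD8 replicate 3 and -0.40 without SETD8 replicate 2, and SNAI2 was -1.37 without SETD8 replicate 3 and -0.58 without vector replicate 3.

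**Figure D2:**
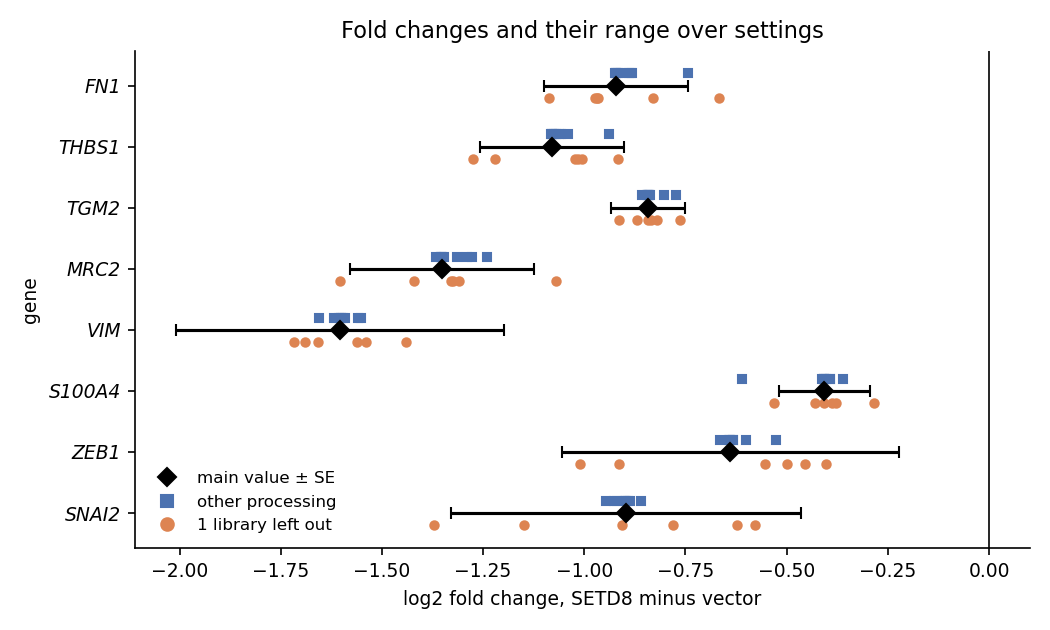
Log2 fold change (x axis, SETD8 minus vector) of the 8 tested genes (y axis), with a diamond and SE bar for the main value, squares for other processing and circles for fits with 1 library left out. Every point lies below 0, TGM2 varies least (-0.91 to -0.76) and ZEB1 and SNAI2 have the widest SE.

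Genes that were lower with SETD8 had longer transcripts over the whole table, with a median of 4977 bases against 3431 for all tested genes and 2311 for genes that were higher. The longest transcripts of FN1 and THBS1 had 9171 and 7775 bases and that of S100A4 had 755. With each library's length trend removed, the log2 fold changes were -0.74 for FN1, -0.94 for THBS1, -0.77 for TGM2, -1.24 for MRC2 and -1.66 for VIM. VIM thus moved slightly away from 0, as did SNAI2 (from -0.90 to -0.95), and S100A4, the shortest member, moved from -0.41 to -0.61. ZEB1 moved from -0.64 to -0.53.

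The spread inside the vector group was wide for MRC2, FN1 and THBS1. Vector counts were among the values in view when the members were chosen, so this too is a description. MRC2 differed 2.18-fold between its highest and lowest vector library, FN1 1.75-fold and THBS1 1.68-fold, beside a median of 1.22-fold over 10573 tested genes with a mean of at least 5 CPM. Of those genes, 99.2%, 96.3% and 94.7% had a smaller ratio than MRC2, FN1 and THBS1. TGM2 (1.23-fold, 50.7% of genes smaller) and S100A4 (1.41-fold, 80.8%) spread less. Within the SETD8 group the same ratio was 1.23 for FN1, 1.33 for THBS1, 1.07 for TGM2, 1.16 for MRC2 and 1.07 for S100A4, with a median of 1.14 over those genes. THBS1 stood at 89.4% there and TGM2 at 18.4%.

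Vector replicate 1 was the vector library closest to the SETD8 group for most members. It was the lowest vector library in 6 of the 8 tested members. VIM, for which it was the highest, and S100A4, for which vector replicate 3 was the lowest, were the exceptions. The members were chosen with this contrast in view, so this is a description. Over all tested genes, vector replicate 1 was the lowest vector library in 35.8% and the highest in 39.0%. On the first principal component of all tested genes it also stood nearest to the SETD8 libraries (-0.939). On that component its nearness to the SETD8 libraries was thus not particular to the members. The share in which it was the lowest vector library was higher among the members than over all tested genes. The median over the 8 members of the log2 difference from the SETD8 mean was 0.57 in vector replicate 1, 0.91 in vector replicate 2 and 1.25 in vector replicate 3. Over all tested genes these medians were 0.017, -0.0083 and 0.0032. Differences in both directions cancel in such a median, so it does not measure closeness over all genes. In vector replicate 1, THBS1 was 0.61, FN1 0.53, TGM2 0.70 and MRC2 0.67 above the SETD8 mean on the log2 scale, and ZEB1 was -0.068. In vector replicate 3 the corresponding differences were 1.20 for THBS1, 1.33 for FN1, 0.99 for TGM2 and 1.79 for MRC2.

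**Figure D3:**
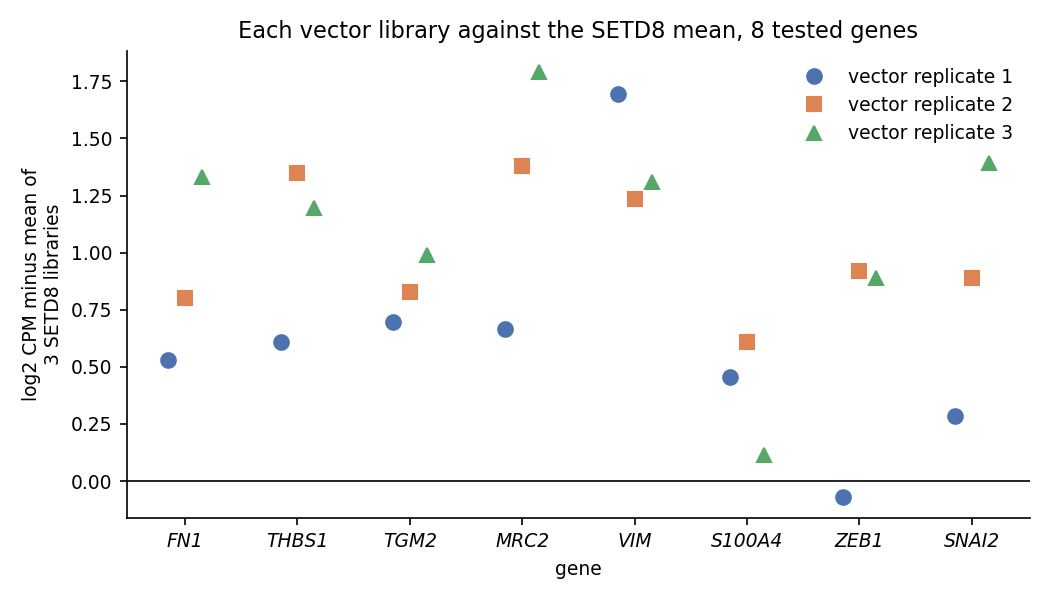
Log2 CPM of each of the 3 vector libraries minus the mean of the 3 SETD8 libraries (y axis) for the 8 tested genes (x axis), with a symbol per vector library and a line at 0. Replicate 1 is lowest in 6 genes, is highest for VIM and lies at -0.068 for ZEB1.

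Per kilobase of exon, the members spanned more than 3 orders of magnitude. In vector libraries S100A4 stood at 386 ± 65.6 CPM per kilobase, TGM2 at 38.1 ± 3.90, MRC2 at 5.55 ± 2.05, THBS1 at 4.10 ± 1.03 and FN1 at 1.88 ± 0.55 (SD, n = 3 each). Below them came SNAI2 at 0.544 ± 0.214, VIM at 0.269 ± 0.052, ZEB1 at 0.184 ± 0.067 and TNC at 0.077 ± 0.055 CPM per kilobase. The libraries of MRC2 and THBS1 overlapped, as did those of ZEB1 and TNC, and the other neighbours did not. In SETD8 libraries the order was the same except that ZEB1 (0.119 ± 0.050) stood above VIM (0.087 ± 0.012 CPM per kilobase), with overlapping libraries. All exons of a gene were counted in its length, so genes with many alternative exons, such as FN1, are placed low.

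The proportions among FN1, THBS1, TGM2 and MRC2 varied from library to library. Per kilobase, FN1 was 0.486, 0.350 and 0.563 of THBS1 in vector replicates 1, 2 and 3 and 0.608, 0.595 and 0.373 of it in SETD8 replicates 1, 2 and 3. These ranges overlap. FN1 relative to TGM2 was 0.0415, 0.0457 and 0.0592 in vector and 0.0513, 0.0479 and 0.0410 in SETD8 libraries, which also overlap. FN1 relative to MRC2 was 0.414, 0.305 and 0.331 in vector and 0.506, 0.444 and 0.422 in SETD8 libraries. These ranges did not overlap, but vector replicate 1 (0.414) lay just below SETD8 replicate 3 (0.422). Both genes were chosen with this contrast in view, so the ratio is a description. Among the 5 members above 5 CPM, the closest profiles over the 6 libraries, centred on their means, were those of FN1 and TGM2, with a root mean square difference of 0.18 on the log2 scale. The farthest were MRC2 and S100A4 at 0.62.

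Over 10565 genes with a symbol and a mean of at least 5 CPM, the profile nearest to FN1 was that of SYNE2, a nuclear envelope protein gene, at a root mean square difference of 0.043 on the log2 scale. SYNE2 had 37.8, 46.7 and 71.0 CPM in the vector libraries and 30.1, 27.9 and 23.7 CPM in those with SETD8. The laminin chain gene LAMA5 (0.11) and the glutamate receptor gene GRIN2B (0.13) followed. Nearest to THBS1 were the integrin subunit gene ITGB4 (0.11), the Wnt antagonist gene NOTUM (0.12) and KIAA0040 (0.13). ITGB4 had 356, 513 and 522 CPM in the vector libraries and 210, 222 and 235 CPM in those with SETD8. MRC2 was nearest to DNER (0.10), EBF4 (0.14) and the transporter gene ABCC3 (0.14). The 6 libraries include both groups, so the difference between groups enters these likenesses.

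Several paralogs of the members had few or no reads. Of the other thrombospondin genes, THBS3 was lowly expressed (1.63 ± 0.51 CPM in the vector group and 1.23 ± 0.32 CPM in the SETD8 group) and did not pass (log2 fold change -0.40, edgeR adjusted p = 0.511), and THBS2, THBS4 and COMP were not tested. TNXB was the only other tenascin gene tested (3.53 ± 1.95 and 1.91 ± 0.44 CPM, log2 fold change -0.88, edgeR adjusted p = 0.186), and TNR had no reads. TGM1 (2.39 ± 0.43 and 1.41 ± 0.71 CPM) and TGM4 (1.06 ± 0.40 and 0.439 ± 0.302 CPM) did not pass either (edgeR adjusted p = 0.202 and 0.181), and TGM6, TGM7 and F13A1 had no reads. ZEB2, the paralog of ZEB1, had no reads. SNAI1, the paralog of SNAI2, had 9.53 ± 0.37 and 9.31 ± 1.52 CPM (log2 fold change -0.03, 95% interval -0.47 to 0.41, edgeR adjusted p = 0.924). Neither MRC1 nor LY75, relatives of MRC2, reached the filter.

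Among 193 further genes of matrix, receptor, EMT and epithelial lists, 131 were tested. Of these, 23 passed the edgeR threshold as lower (17.6%) and 4 as higher (3.05%). From here on, only genes that passed are said to have fallen or risen. Over all tested genes the shares were 4.75% and 3.08%. The lists were compiled by function with the earlier results of these data known. Leaving out single libraries changed these counts from 23 and 4 to 49 and 9 without vector replicate 1, 4 and 0 without vector replicate 2, 2 and 0 without SETD8 replicate 1, 6 and 0 without SETD8 replicate 2 and 5 and 0 without SETD8 replicate 3.

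Other secreted matrix glycoproteins and proteoglycans fell in 8 of 27 tested genes (29.6%) and rose in 0, with a median log2 fold change of -0.45. HSPG2, which encodes the basement membrane proteoglycan perlecan, fell from 157 ± 20.9 CPM with vector to 97.6 ± 6.68 CPM with SETD8 (edgeR adjusted p = 0.00514; log2 fold change -0.69, SE 0.10). VCAN (versican) fell by 0.60, the elastic fibre gene FBLN5 by 1.43 and the latent TGF-beta binding gene LTBP4 by 0.45 on the log2 scale (edgeR adjusted p = 0.00830, 0.00848 and 0.0128). After removal of each library's length trend, the log2 fold changes were nearer to 0 for HSPG2 (-0.46), VCAN (-0.39) and LTBP4 (-0.38). That of FBLN5 was -1.51. The other 24 listed genes were not tested. Crosslinking enzymes fell in 3 of 9 tested genes and rose in 0 (median -0.53). These were the lysyl oxidase gene LOXL2, from 120 ± 27.9 CPM with vector to 68.2 ± 9.42 CPM with SETD8 (edgeR adjusted p = 0.0148; log2 fold change -0.82), and the lysyl hydroxylase genes PLOD1 (-0.50, edgeR adjusted p = 0.0141) and PLOD3 (-0.31, edgeR adjusted p = 0.0360). PLOD3 lost its call with library totals or the replicate block.

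Receptors of these matrix proteins fell in 3 of 15 tested genes and rose in 0, with a median of -0.21. LRP1, an endocytic receptor that binds thrombospondin 1, fell from 9.18 to 15.9 CPM over the vector libraries to 5.03 to 7.56 CPM over those with SETD8 (edgeR adjusted p = 0.0233; log2 fold change -0.94, SE 0.22). SDC4, a syndecan that binds fibronectin, fell by 0.39 and the collagen receptor DDR1 by 0.36 on the log2 scale (edgeR adjusted p = 0.0247 and 0.0306). After removal of the length trend, log2 fold changes were -0.69 for LRP1, -0.45 for SDC4 and -0.33 for DDR1. The main fibronectin receptor subunits ITGA5 (-0.07, 95% interval -0.36 to 0.22) and ITGB1 (-0.20, 95% interval -0.46 to 0.06) did not pass (edgeR adjusted p = 0.714 and 0.192).

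Of 8 tested EMT transcription factors other than ZEB1 and SNAI2, ETS1 alone fell, from 199 ± 14.6 CPM with vector to 146 ± 16.6 CPM with SETD8 (edgeR adjusted p = 0.0210; log2 fold change -0.44), and 0 rose. The median was -0.07, and 8 further factors, ZEB2 and TWIST2 among them, were not tested. Mesenchymal surface, filament and S100 genes fell in 5 of 23 tested and rose in 1 (median -0.17). NES, which encodes the filament protein nestin, fell from 26.9 ± 3.90 CPM with vector to 12.5 ± 0.88 CPM with SETD8 (edgeR adjusted p = 0.00262; log2 fold change -1.11, SE 0.13). The receptor kinase gene AXL fell by 0.77 and the cytolinker gene PLEC by 0.53 on the log2 scale (edgeR adjusted p = 0.00318 and 0.0101). After removal of the length trend, log2 fold changes were -1.02 for NES, -0.72 for AXL and -0.30 for PLEC. S100A10, a relative of S100A4, rose from 90.2 ± 19.6 CPM with vector to 135 ± 7.57 CPM with SETD8 (edgeR adjusted p = 0.0227; log2 fold change 0.58). The further S100 genes of the list did not pass, S100A11 (0.30), S100A6 (0.23) and S100A3 (-0.15) among them. In all, 17 of the 23 tested genes of this list did not pass. Among them were ACTA2 (log2 fold change 0.006), TAGLN (-0.17), TPM1 (0.12) and TPM2 (0.10), with overlapping groups (edgeR adjusted p = 0.990, 0.553, 0.617 and 0.620). CDH2 and PDGFRA, classical mesenchymal markers, were not tested.

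**Figure D4:**
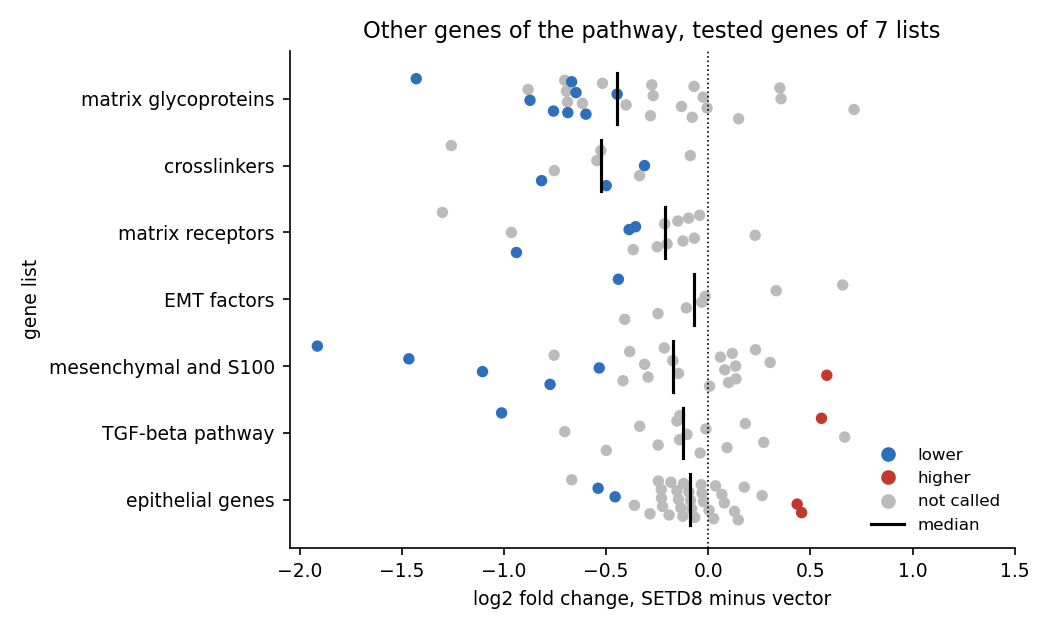
Log2 fold change (x axis, SETD8 minus vector) of the tested genes of 7 lists (y axis) other than the 9 members, coloured by the edgeR call, with a black line at each list's median. Matrix glycoproteins and crosslinkers have the lowest medians (-0.45 and -0.53). EMT factors (-0.07), epithelial genes (-0.09) and the TGF-beta pathway (-0.12) have the medians nearest to 0.

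Epithelial genes did not move as one group. Of 34 tested, 2 fell and 2 rose (5.88% each), with a median log2 fold change of -0.09. The E-cadherin gene CDH1, a target that ZEB1 and SNAI2 repress, fell from 117 ± 21.5 CPM with vector to 80.7 ± 5.43 CPM with SETD8 (edgeR adjusted p = 0.0218; log2 fold change -0.54), and the desmosomal gene PKP3 fell by 0.46 (edgeR adjusted p = 0.0160). The claudin genes CLDN4 (0.46) and CLDN7 (0.43) rose (edgeR adjusted p = 0.0156 and 0.0444). In the TGF-beta pathway, which induces fibronectin in many cells, 1 of 16 tested genes fell and 1 rose (median -0.12). SMAD7, the pathway's feedback inhibitor, rose by 0.55 (edgeR adjusted p = 0.0316). Of the 21 called genes that the rule for named genes took from the lists, 17 missed the threshold when vector replicate 2 was left out and 3 when vector replicate 3 was, with 19, 16 and 16 for SETD8 replicates 1, 2 and 3 and 0 for vector replicate 1.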

How the data were processed

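The authors deposited whole-number read counts per gene for 6 libraries, not normalized, for 58735 Ensembl gene IDs, and all matched GENCODE release 29. Per the submitters' processing notes, HISAT2, STAR, featureCounts, HTSeq, GRCh38 and hg38 were involved. What each was used for, their versions, the annotation and the handling of strand were not given in the sources used here. Count columns named NC with a number were taken as the vector group, the only group other than SETD8, and the number as the replicate. Columns of other samples numbered 0.

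The filter filterByExpr kept 14370 genes. After TMM scaling, SETD8 was compared with vector by the robust quasi-likelihood test of edgeR 4.0.16 in R 4.3.3, with no covariates. Tests were two-sided, p-values were Benjamini-Hochberg adjusted over the 14370 genes, and the threshold was 0.05. The SE is the log2 fold change divided by the square root of F, and 95% intervals use 4 degrees of freedom. Log2 CPM used a prior count of 2. The test was run on simulated counts first.

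The members and lists were chosen with earlier results of these data known. Named genes were the members, KMT5A, up to 4 called genes of each list by adjusted p, the 3 nearest profiles of FN1, THBS1 and MRC2, and paralogs. ITGA5, ITGB1, TWIST2, CDH2 and the cell type markers were named outside that rule, after their values were seen. So were ACTA2, TAGLN, TPM1, TPM2, S100A3, S100A6 and S100A11. The values of 1 gene that the rule took are not reported here. Alternatives were DESeq2-type size factors, library totals, no filter, a filter that asked for 1 CPM in every library of either group, limma-voom (limma 3.58.1), DESeq2 1.42.0, a replicate block, lowess length and GC corrections (span 0.3) and leaving out each library. Figures were drawn with matplotlib 3.10.9.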

Additional observations from a re-analysis of the deposited data

How the results depend on the processing

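The 8 tested members kept a negative fold change under every alternative that gave a value (ZEB1 was removed by the stricter filter). The 6 calls among them were kept with DESeq2-type size factors, library totals, both other filters, the replicate block and both corrections. Limma-voom gave 5, without S100A4, and DESeq2 gave 5, with no adjusted p for VIM. Leaving out each library gave 1 to 6 calls among members, 2 to 49 falls and 0 to 9 rises among related genes, and 10 to 1738 falls and 1 to 1771 rises among all genes.

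Among all genes 682 fell and 443 rose. With no low-count filter 1051 fell and 949 rose, and 38 related genes fell. Library totals gave 792 rises and 505 falls, so falls made up 38.9% of calls in place of 60.6%, and moved the median over all genes to 0.043 on the log2 scale. DESeq2 gave 739 rises. With no low-count filter, falls made up 52.6% of calls. The cause of these shifts was not tested. The replicate block gave 6 members lower, 26 related genes lower and 4 higher, and 645 falls and 532 rises over all genes. The labels do not say whether same-numbered libraries share more than a number. The correlations of their deviations from group means were 0.025, 0.0078 and -0.064. Counts of 3 to 45 reads limit TNC, VIM, ZEB1 and SNAI2.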
